A study of Mus musculus with 10 samples.

Results

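The genes described here encode the subunits of respiratory complexes II, III, IV and V that are read from nuclear DNA, with cytochrome c, which carries electrons between complexes III and IV. Members were the rows of the gene count table that map to Sdha to Sdhd, Cycs or Cyc1, or to symbols beginning with Uqcr, Cox4i, Cox5, Cox6, Cox7, Cox8 or Atp5 (current or older names), and 14 pseudogene rows were left out. This gave 50 of 52178 rows: 4 for complex II, 9 for complex III, 1 for cytochrome c, 18 for complex IV and 18 for complex V. They stand for 49 genes, since the Atp5po symbol had a second row with 2 counts in all.

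RNA was sequenced from pancreatic islets, the endocrine clusters that secrete insulin and glucagon, of male C57Bl/6 retired breeder mice. The sedentary group (sedentary 1 to 5) and the exercise group (exercise 6 to 10) had 5 libraries each, and the labels give no genetic change in either group. Trained animals had 3 days of acclimatization and then 2 weeks of treadmill running, with 1 h per session and 5 sessions per week, at a belt speed of 17 cm/s and an incline of 5 degrees. In both groups islets were released with collagenase, picked by hand and placed in medium with 11 mM glucose. Whether every library stands for a separate mouse is not stated. The p-values here set the difference between groups against the spread of libraries within a group, part of which could be technical.

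Mitochondria pass electrons from succinate through complex II, and from NADH through complex I, to ubiquinone, complex III, cytochrome c and complex IV, where oxygen is reduced. Complexes III and IV pump protons, and complex V, the ATP synthase, uses their return to make ATP. In the beta cell, ATP made from glucose closes potassium channels and so sets off insulin release. Complex II is built wholly from nuclear genes, whereas complexes III, IV and V also hold subunits encoded in mitochondrial DNA.

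The libraries held 15081922 to 23222704 counts, and sedentary 1 and 2 stood apart from the other 8. A list of 11 intestinal epithelial genes (Alpi, Apoa4, Cdx2, Fabp1 and others) summed to 12122 and 17138 CPM (counts scaled to library size) in sedentary 1 and 2. The sum was 2693 to 3493 CPM in sedentary 3 to 5 and 253 to 680 CPM in exercise, and all 11 genes were lower in exercise. The 8 beta cell genes summed to 8101 and 37187 CPM in sedentary 1 and 2, against 134006 to 193588 CPM in the other 8 libraries, and none of them passed. In sedentary 1 and 2 the alpha cell list was low too (432 and 1967, against 4229 to 16099 CPM in the other 8). So were the delta and PP cell list (218 and 912, against 2379 to 4707 CPM) and the endothelial list (128 and 66.6, against 218 to 294 CPM). The duct list was high (514 and 1051, against 58.9 to 220 CPM). The macrophage list and the fibroblast and pericyte list were low in sedentary 2 only. The 11 acinar genes of the exocrine pancreas summed to 70425 to 147202 CPM in sedentary and 164619 to 452702 CPM in exercise, and 5 of the 11, among them Cela3b and Ctrb1, were higher in exercise. Of the duct genes Krt19 and Cftr were lower and 3 of 5 did not pass, and no member passed among the alpha, delta and PP cell, endothelial, macrophage, fibroblast and pericyte, striated muscle and smooth muscle lists. With 8 libraries, without sedentary 1 and 2, 8 of the 11 acinar genes were higher, as were 1 beta cell gene (G6pc2) and 1 of 5 endothelial genes, and all 11 intestinal genes were again lower. Counts of members are given with all 10 libraries and with these 8. In bulk islets, fewer cells of a type and less RNA per cell cannot be told apart, and the part of these cell types in the results below was not tested.

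Most of the subunit genes were lower in exercise than in sedentary islets, and none was higher. Of the 44 members with enough counts to test, 36 were lower at an adjusted p under 0.05 (edgeR, quasi-likelihood test with Benjamini-Hochberg adjustment over 15298 genes), where 11.4% of all genes tested were lower. In the other direction 0 of 44 passed, where 2.44% of all genes were higher (0 members also at an unadjusted p under 0.05, and 0 with DESeq2 or limma-voom). DESeq2 called 41 of 46 members lower, where 2867 of 19239 genes were lower. Limma-voom called only 1 of 44, where 339 of 15298 genes were lower. At an unadjusted p under 0.05, 42 members were lower with limma-voom, where 5202 of 15298 genes passed in either direction. The fitted falls ran from 1.92-fold for Cox8a to 20.5-fold for Cox7a1, with edgeR adjusted p between 0.0110 and 0.0490. Cox7a1 had few counts in exercise. The median log2 fold change of the 44 members was -1.24, beside -0.000719 over all genes tested. Sedentary 2 held the highest value of 43 members, and sedentary 1 and 2 were the top pair for 42.

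With 8 libraries the direction was the same and the sizes were smaller. Of 45 members tested, 25 were lower and 0 higher, where 8.68% and 4.1% of all genes were lower and higher. The members' median log2 fold change was then -0.50, and that of all genes 0.03. Of the 36 members, 24 were lower with 8 libraries too, and Sdha was lower with 8 libraries only. For 35 of the 36 the log2 fold change was over 1.5 times larger with all 10 libraries, Atp5mc2 being the exception. Every exercise library lay below every sedentary library for 24 of the 44 members, where this held for 11.4% of all genes tested. Against sedentary 3 to 5 alone it held for 24 members, where the share of all genes was 12.4%.

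**Figure D1:**
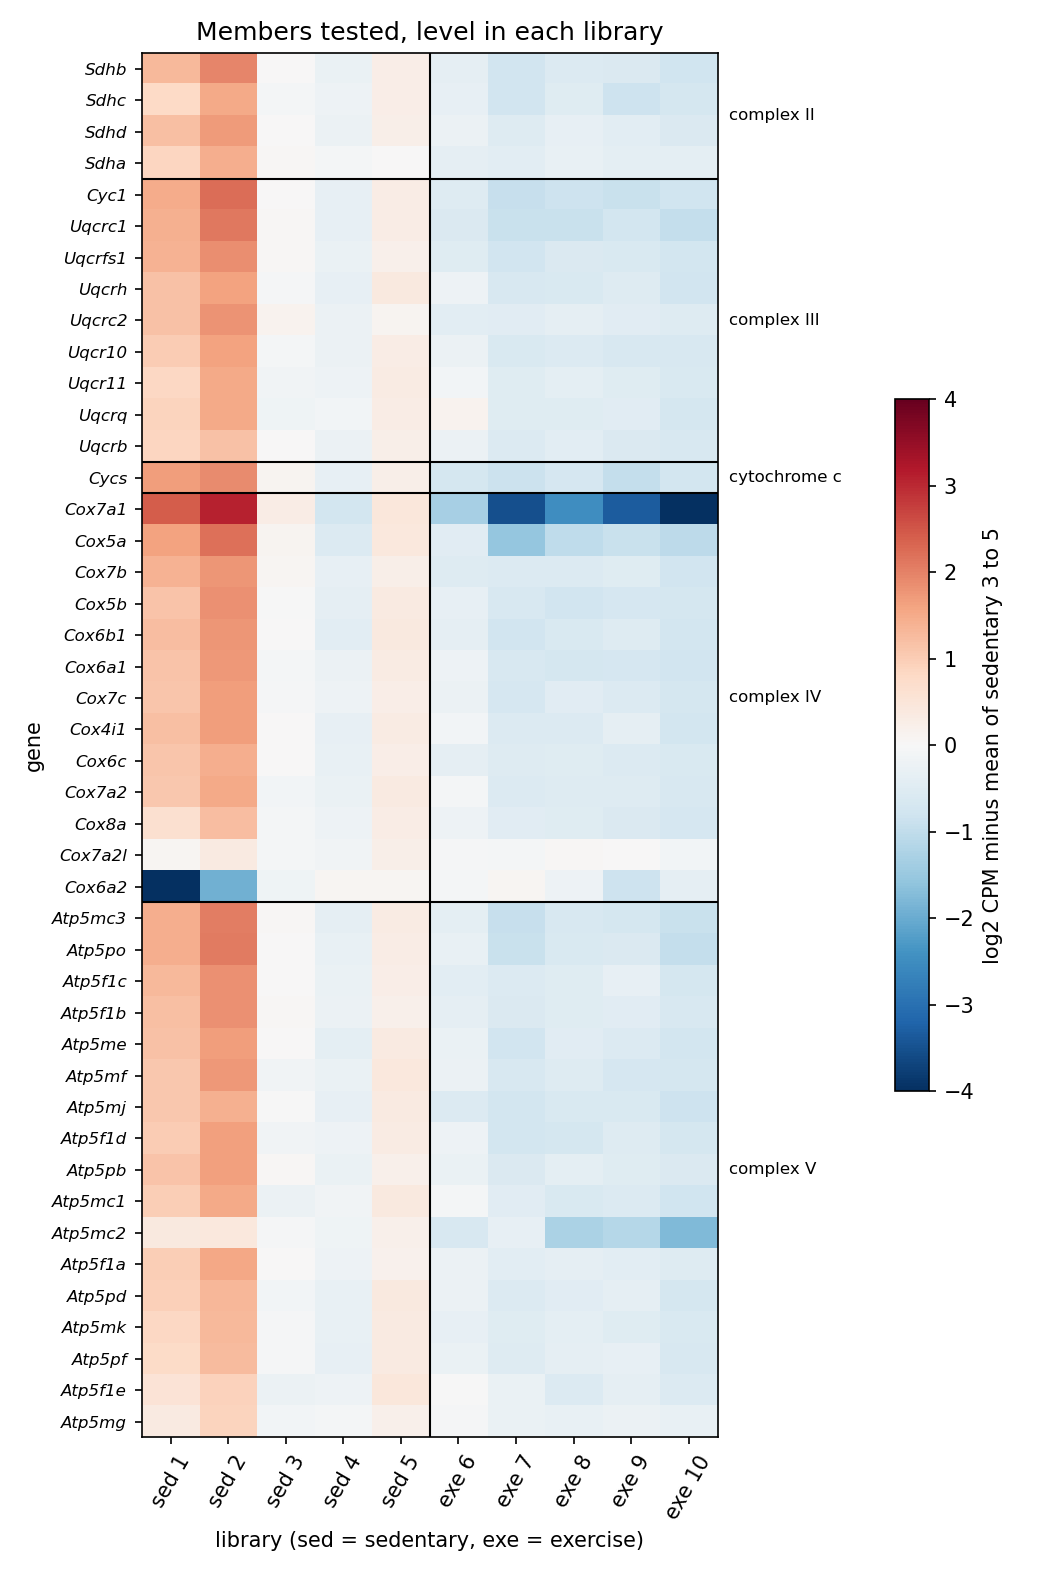
Level of the 44 tested members (rows, grouped by complex) in the 10 libraries (columns), as log2 CPM minus the gene's mean over sedentary 3 to 5, with the colour scale ending at -4 and 4. Sedentary 1 and 2 are the red columns, exercise 6 to 10 are pale blue for most genes, and the rows of Cox7a1, Cox6a2 and Cox7a2l differ from the rest.

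The spread between libraries differed by group. Within the sedentary group the highest library exceeded the lowest by a median of 3.76-fold over the 44 members (range 1.41 to 20.9). Within sedentary 3 to 5 the median was 1.47-fold (1.07 to 2.29), and within exercise it was 1.34-fold (1.11 to 7.32). Sedentary 4 was the lowest sedentary library for 39 members, and exercise 6 the highest exercise library for 36. The calls with all 10 libraries lay near the threshold, and leaving out 1 library moved their count. It was 3, 2, 1, 1 and 2 without exercise 6, 7, 8, 9 and 10, 6 and 11 without sedentary 1 and 2, and 41, 42 and 31 without sedentary 3, 4 and 5. Over all genes, 800 to 1015 of 15453 to 15578 were lower without 1 exercise library. Without 1 sedentary library 1059 to 2721 of 15405 to 15515 genes were lower. Cox7a1 was the only member called lower in all 10 of these fits. It had few counts in exercise and enough to test only through its sedentary libraries. Its calls in these fits are therefore no separate support for its fall. Limma-voom with all 10 libraries did not call Cox7a1 (-3.92 ± 1.17 SE, adjusted p = 0.0710).

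**Figure D2:**
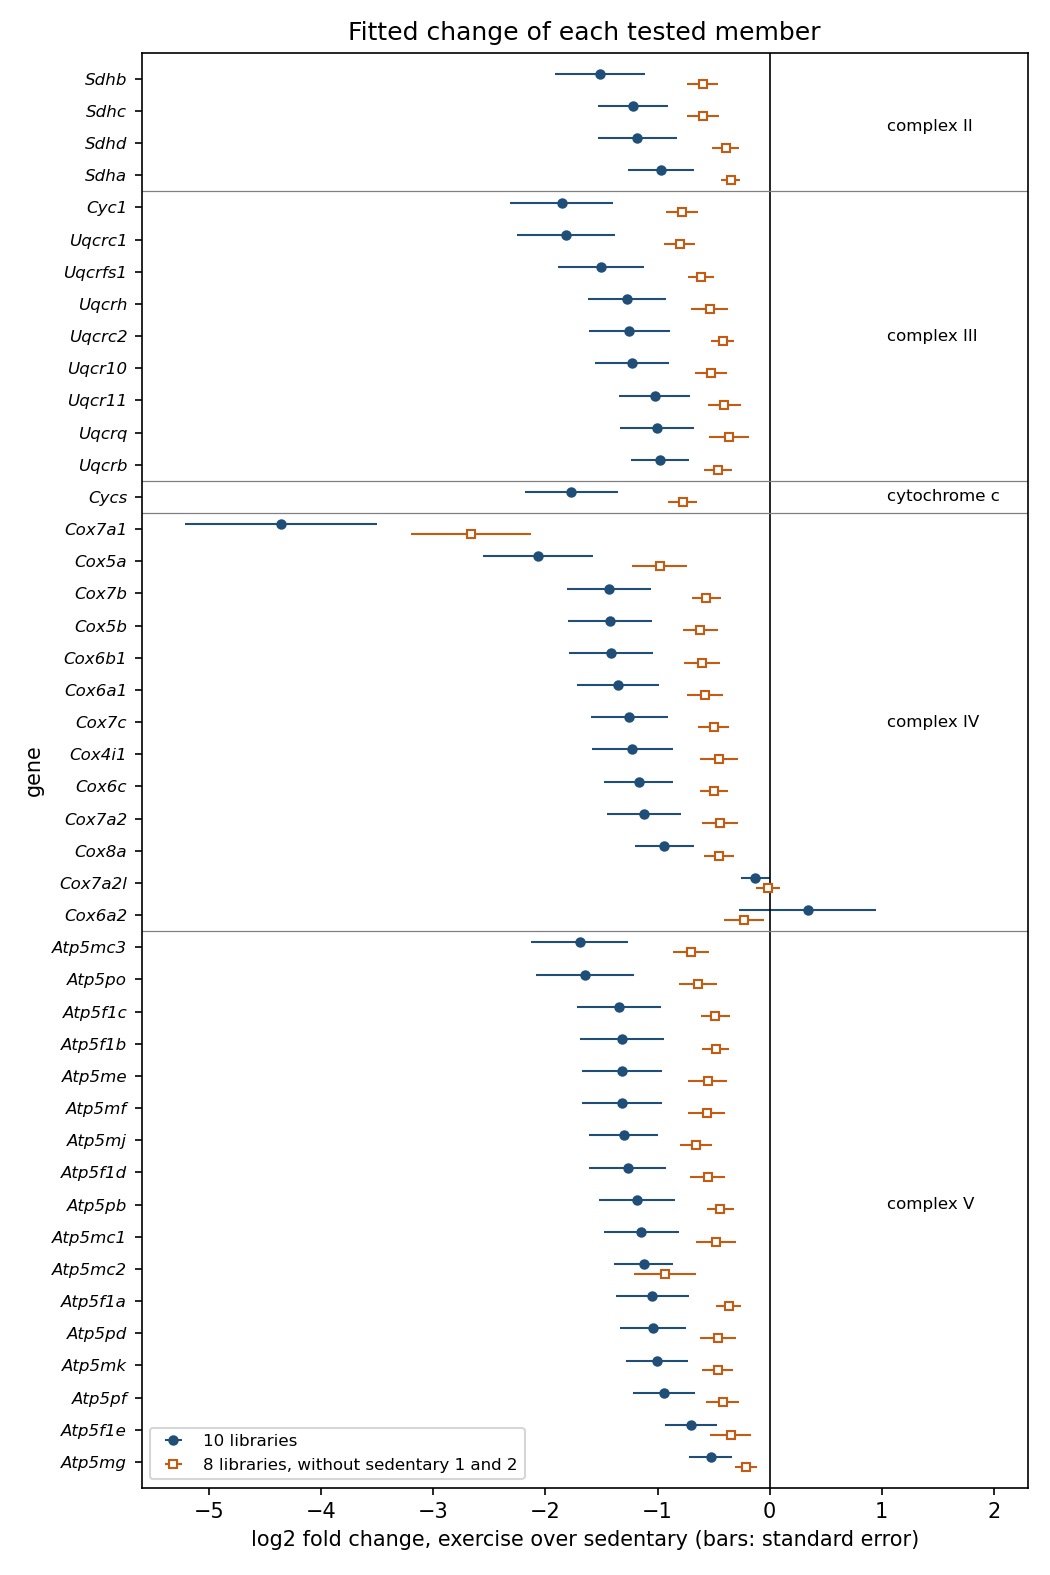
Log2 fold change of each tested member, exercise over sedentary, with its standard error, from all 10 libraries (filled circles) and from 8 libraries without sedentary 1 and 2 (open squares). All open squares lie at or left of 0, most between -0.98 and -0.21, and closer to 0 than the filled circles for every gene left of 0.

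Promoters of 7 members are shown because the members moved together: 4 with motifs of known regulators, and 3 without from the c-ring and Cox7a genes described below. Nuclear respiratory genes are known targets of the factors NRF1, GABP (also called NRF2), ERR alpha and YY1. RefSeq promoters of GRCm38.p6 (250 bases before the start to 50 after) matched 37 of the 49 genes, and Atp5f1a, Atp5mj, Cox4i1, Cox4i2, Cox6a2, Cox6c, Cox8c, Cyc1, Sdhc, Uqcrb, Uqcrc2 and Uqcrq had none. Both strands were searched for CGCATGCG, the core of the NRF1 site, which reads the same on both strands and was counted once, CCGGAAG (GABP), TCAAGGTCA (ERR alpha) and AAGATGGCG (YY1). No matches in members overlapped each other. The capitals below mark matches, the bases run 5′ to 3′ on the gene's strand, and all lie before the start.
Cycs: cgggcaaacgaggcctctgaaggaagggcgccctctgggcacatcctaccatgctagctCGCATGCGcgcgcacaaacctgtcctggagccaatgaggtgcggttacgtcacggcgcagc
Atp5pf: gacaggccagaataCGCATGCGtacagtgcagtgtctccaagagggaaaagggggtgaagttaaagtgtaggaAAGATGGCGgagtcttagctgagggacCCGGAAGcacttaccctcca
Atp5mc2: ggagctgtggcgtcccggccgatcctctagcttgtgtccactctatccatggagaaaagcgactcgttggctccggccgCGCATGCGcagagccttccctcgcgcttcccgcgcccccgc
Atp5mc3: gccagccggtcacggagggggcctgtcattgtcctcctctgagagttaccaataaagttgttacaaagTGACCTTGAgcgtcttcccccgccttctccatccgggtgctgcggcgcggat
Atp5mc1: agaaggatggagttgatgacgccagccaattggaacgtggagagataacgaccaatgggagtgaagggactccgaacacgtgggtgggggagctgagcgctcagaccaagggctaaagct
Cox7a1: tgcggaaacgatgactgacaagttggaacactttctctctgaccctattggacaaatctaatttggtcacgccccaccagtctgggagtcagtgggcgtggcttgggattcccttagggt
Cox7a2: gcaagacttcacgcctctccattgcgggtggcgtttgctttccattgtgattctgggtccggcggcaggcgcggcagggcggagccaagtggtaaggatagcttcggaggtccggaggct
The Cycs stretch is chr6:50566570-50566689 (minus strand) with an NRF1 core, and that of Atp5pf is chr16:84835018-84835137 (minus strand) with NRF1, YY1 and GABP matches in this order. Atp5pf had 2 starts in the promoter table, and the start with most matches is shown. The promoter of its other start held none of the 4 motifs. The Atp5mc2 stretch is chr15:102671048-102671167 (minus strand) with an NRF1 core, and that of Atp5mc3 is chr2:73911327-73911446 (minus strand) with the ERR alpha motif on the opposite strand. Atp5mc1 (chr11:96075632-96075751, minus strand), Cox7a1 (chr7:30184051-30184170, plus strand) and Cox7a2 (chr9:79759854-79759973, minus strand) held none of the 4 motifs.

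The NRF1 core stood in 8 of the 37 promoters (21.6%), where 2.07% of the 27025 genes of the promoter table had it. These were Atp5mc2, Atp5me, Atp5mg, Atp5pf, Cox6a1, Cycs, Uqcr11 and Uqcrc1. The GABP motif stood in 13 (35.1%, against 9.93% of all genes), the ERR alpha motif in Atp5mc3 and Sdhd (5.41% against 0.466%) and the YY1 motif in Atp5mf and Atp5pf (5.41% against 1.64%). Of the 37 promoters 19 held none. Of these 37 genes 29 were called lower. Among the 29, 6 held the NRF1 core, 10 the GABP motif, 2 the ERR alpha motif and 2 the YY1 motif. Whether matches go with the fall was not tested. Members with matches included Atp5mg, at a log2 fold change of -0.53 ± 0.19 SE that did not pass, and members without any included Cox7a1, at -4.36 ± 0.86 SE. Matches describe letters in this window and are no evidence of binding.

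Complex II oxidizes succinate, and for each of its 4 genes every exercise library lay below every sedentary library. With all 10 libraries 3 of the 4 were lower, and 3 with 8. Sdhb, the iron-sulphur subunit, was at 53.1 to 249 CPM in sedentary and 37.1 to 49.4 CPM in exercise. The fall was -1.51 ± 0.40 SE on the log2 scale (edgeR adjusted p = 0.0336). It was -0.60 with 8 libraries (adjusted p = 0.0181). Sdhc, which with Sdhd anchors the complex in the membrane, was at 108, 175, 58.5, 53.8 and 74.6 CPM in sedentary and 49.3, 36.4, 44.3, 34.5 and 38.1 CPM in exercise (-1.21 ± 0.31 SE, edgeR adjusted p = 0.0300). Sdhd was lower by a log2 fold change of -1.18. Sdha, the flavoprotein that binds succinate, was at 192 to 549 CPM in sedentary and 149 to 164 CPM in exercise. It missed the threshold with all libraries (-0.97 ± 0.29 SE, edgeR adjusted p = 0.0516) and passed with 8 (-0.35 ± 0.08 SE, adjusted p = 0.0228).

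Complex III moves electrons from ubiquinone to cytochrome c, and 7 of its 9 nuclear genes were lower (6 with 8 libraries). The largest falls were those of Cyc1, Uqcrc1 and Uqcrfs1. Cyc1, the haem-bearing cytochrome c1, was at 202, 342, 74.1, 58.0 and 88.8 CPM in sedentary 1 to 5 and at 51.2, 38.5, 40.4, 39.3 and 41.5 CPM in exercise 6 to 10. On the log2 scale the change was -1.86 ± 0.46 SE (edgeR adjusted p = 0.0257), against -0.78 with 8 libraries. Uqcrc1, a core subunit, was at 309, 502, 119, 92.0 and 141 CPM in sedentary and 77.0, 62.6, 62.2, 69.0 and 59.95 CPM in exercise (-1.81 ± 0.44 SE, edgeR adjusted p = 0.0232). In both genes the groups did not overlap, with or without sedentary 1 and 2. Uqcrfs1, the Rieske iron-sulphur protein, was at 155, 216, 61.7, 50.1 and 69.1 CPM in sedentary and 43.2, 35.3, 40.3, 39.6 and 35.9 CPM in exercise (-1.51 ± 0.38 SE, edgeR adjusted p = 0.0296), again without overlap. The second core subunit gene Uqcrc2 (-1.25) and the small subunit genes Uqcrh (-1.27), Uqcr10 (-1.23) and Uqcrb (-0.97) were lower too. Uqcrq and Uqcr11, also small subunits, had log2 fold changes of -1.002 and -1.03 and did not pass (edgeR adjusted p = 0.0664 and 0.0532).

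Cycs, the mobile cytochrome c that also takes part in apoptosis, had the smallest p of all members after Cox7a1. It was at 125, 144, 41.7, 31.2 and 45.9 CPM in sedentary 1 to 5 and at 23.9, 21.7, 24.4, 20.03 and 23.7 CPM in exercise 6 to 10. The exercise libraries spanned a narrow range below all sedentary libraries. On the log2 scale Cycs fell by 1.77 (± 0.41 SE, edgeR adjusted p = 0.0214), and with 8 libraries by 0.77 (± 0.13 SE, adjusted p = 0.00438). Its promoter stretch with the NRF1 core is printed above.

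Complex IV, cytochrome c oxidase, has a core from mitochondrial DNA with nuclear subunits around it, and 11 of its 13 tested nuclear genes were lower (8 of 14 with 8 libraries). Cox5a, which lies on the matrix side, was at 121, 182, 42.3, 27.0 and 53.0 CPM in sedentary 1 to 5 and at 28.4, 13.5, 19.2, 21.4 and 19.0 CPM in exercise 6 to 10. The log2 fold change was -2.06 ± 0.49 SE (edgeR adjusted p = 0.0220), and the groups overlapped only through exercise 6 and sedentary 4. Cox5b, the zinc-binding subunit, was at 162, 262, 73.9, 58.0 and 95.3 CPM in sedentary and 59.2, 47.3, 43.6, 46.7 and 45.7 CPM in exercise (-1.42 ± 0.37 SE, edgeR adjusted p = 0.0329), with the same overlap. Cox7b was at 179, 234, 72.9, 54.4 and 80.8 CPM in sedentary and 48.1, 47.1, 46.5, 48.9 and 39.9 CPM in exercise, without overlap (-1.43 ± 0.38 SE, edgeR adjusted p = 0.0326). These 3 genes remained lower with 8 libraries, at log2 fold changes of -0.98, -0.62 and -0.57. Cox7c (-1.25) and Cox6c (-1.17), small membrane subunits with a single gene each, were lower too.

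Several complex IV subunits come as paired genes, one expressed in most tissues and one in fewer. Cox7a1 (ENSMUSG00000074218) is the isoform typical of heart and skeletal muscle, and Cox7a2 its partner in most tissues. Cox7a1 was at 24.2, 37.8, 5.55, 2.68 and 6.12 CPM in sedentary 1 to 5 and at 1.79, 0.391, 0.805, 0.451 and 0.244 CPM in exercise 6 to 10. All sedentary libraries lay above all exercise libraries, with sedentary 1 and 2 the highest. Its log2 fold change of -4.36 ± 0.86 SE was the largest of all members (edgeR adjusted p = 0.0110). It was -2.66 ± 0.54 SE with 8 libraries (adjusted p = 0.0100). Cox7a1 had 5 to 692 counts per library, fewest in exercise, and had enough counts to test only through its sedentary libraries. The size of its fall is therefore uncertain. Cox7a2 was at 106, 143, 47.0, 42.1 and 64.3 CPM in sedentary and 47.3, 34.7, 35.2, 35.4 and 32.5 CPM in exercise (-1.12 ± 0.33 SE, edgeR adjusted p = 0.0457), with exercise 6 above 2 sedentary libraries.

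Within the pair the balance differed between the groups. Per length of transcript, Cox7a1 made up 27.8, 30.6, 16.5, 9.64 and 13.8% of both genes in sedentary 1 to 5 and 5.96, 1.85, 3.70, 2.09 and 1.25% in exercise 6 to 10. The log2 ratio of Cox7a1 to Cox7a2 counts was -2.90 ± 0.86 (SD, n = 5) in sedentary and -5.92 ± 0.87 (SD, n = 5) in exercise. The difference was -3.02 (two-sided exact permutation over libraries, p = 0.00794, which is the lowest p available to 5 against 5, or 0.0397 adjusted over 5 pairs). Against sedentary 3 to 5 it was -2.44, and the ratios did not overlap there either. The exercise ratios rest on few Cox7a1 counts, and the pair could be tested only through the sedentary counts of Cox7a1. The p of the ratio is therefore no separate support for the fall of Cox7a1. The intestinal list was also highest in sedentary 2, then sedentary 1, and lowest in exercise, and its part in the Cox7a1 result was not tested. The 8 striated muscle genes summed to 3.82 and 7.70 CPM in sedentary 1 and 2, 2.85 to 3.05 CPM in sedentary 3 to 5 and 1.95 to 2.88 CPM in exercise. This order of the groups was also that of Cox7a1, and its part in the result was not tested. Myh1 and Myh4 were at 0 in every library, and neither of the 2 genes of the list that could be tested passed. Brown fat genes, another tissue with much Cox7a1, summed to 0.0598 to 1.01 CPM.

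Cox7a2l, related to both in sequence, is known as a factor that joins complexes III and IV into supercomplexes, and C57Bl/6 mice are known to carry a short form of it that is defective in this. It was at 138, 168, 125, 119 and 154 CPM in sedentary 1 to 5 and at 127, 126, 137, 134 and 121 CPM in exercise 6 to 10. The groups overlapped, sedentary 2 and then sedentary 5 were the highest, and sedentary 1 lay close to exercise 8. Its log2 fold change was -0.13 ± 0.13 SE (edgeR adjusted p = 0.469), -0.02 ± 0.10 SE with 8 libraries and -0.47 with library totals. Per kilobase of transcript its level was 110.2 to 156 CPM in sedentary, against 63.9 to 218 CPM for Cox7a2.

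Cox6a2 (ENSMUSG00000030785), the heart and muscle isoform of subunit 6a, ran opposite to the other tested members in sedentary 1 and 2. It was at 2.51, 13.0, 43.8, 52.4 and 51.7 CPM in sedentary 1 to 5 and at 46.2, 52.1, 42.8, 27.8 and 38.0 CPM in exercise 6 to 10. The low values were in the libraries in which the beta, alpha, delta and PP cell and endothelial lists were also low. The part of these cell types in the Cox6a2 values was not tested. The other 8 libraries overlapped between the groups. The gene did not pass (0.34 ± 0.61 SE on the log2 scale, edgeR adjusted p = 0.695). Its sign turned to -0.01 with library totals, to -0.04 with sample-weighted limma-voom and to -0.23 ± 0.18 SE with 8 libraries. Its partner Cox6a1, found in most tissues, was at 227, 345, 97.6, 88.3 and 131 CPM in sedentary and 90.5, 66.7, 64.1, 65.0 and 61.6 CPM in exercise (-1.35 ± 0.36 SE, edgeR adjusted p = 0.0353). Per length, Cox6a2 made up 0.921 and 3.07% of both genes in sedentary 1 and 2, 25.0 to 33.3% in sedentary 3 to 5 and 26.4 to 39.6% in exercise. The log2 ratio differed by 2.12 between the groups (two-sided exact permutation over libraries, p = 0.0556, or 0.106 adjusted over 5 pairs), and by 0.32 without sedentary 1 and 2.

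**Figure D3:**
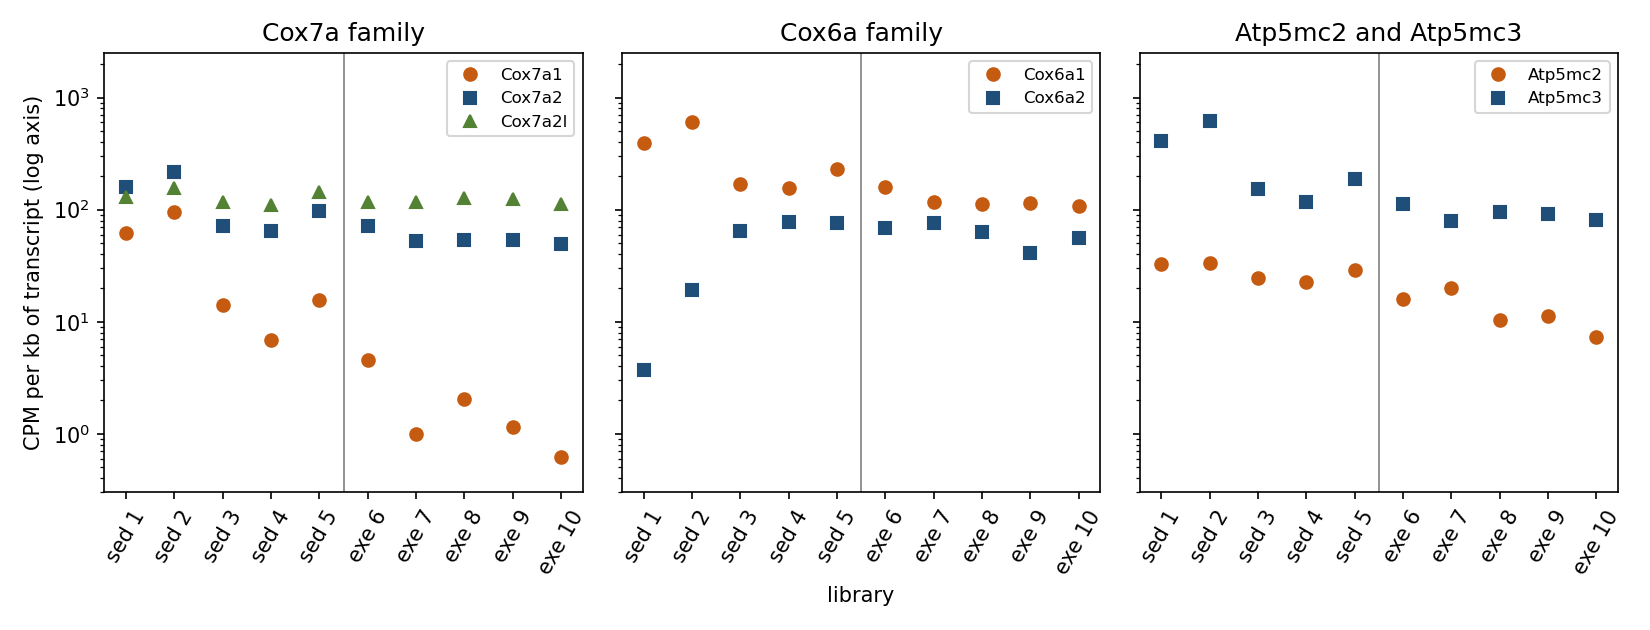
Level per kilobase of transcript (CPM per kb, log axis) in each library for the Cox7a family, the Cox6a pair and 2 of the 3 Atp5mc genes. Atp5mc1 is left out because its principal transcripts run from 596 to 4715 bases. Cox7a1 falls from 6.81 to 96.1 in sedentary to 0.621 to 4.55 in exercise, Cox7a2l is level, and Cox6a2 is low in sedentary 1 and 2 only.

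The other paired genes were carried by 1 partner. Cox4i1 was at 272, 380.3, 119, 94.0 and 147 CPM in sedentary 1 to 5 and at 109.7, 80.2, 80.2, 91.9 and 71.0 CPM in exercise 6 to 10 (-1.23 ± 0.36 SE, edgeR adjusted p = 0.0484). Cox4i2, the isoform linked to low oxygen, was at 0.120, 0.273, 0.555, 0.518 and 1.17 CPM in sedentary and 0.671, 0.325, 0.403, 0.837 and 0.928 CPM in exercise. It had 109 counts in all 10 libraries and made up at most 1.33% of the pair per length. Cox6b1 was at 171, 247, 73.5, 54.6 and 94.6 CPM in sedentary and 56.0, 42.2, 47.8, 51.0 and 43.4 CPM in exercise (-1.41 ± 0.37 SE, edgeR adjusted p = 0.0333). Cox4i1 and Cox6b1 overlapped between the groups only through exercise 6 and sedentary 4. Cox8a was at 173, 262, 104, 96.0 and 134 CPM in sedentary and 95.8, 80.9, 79.4, 74.3 and 69.8 CPM in exercise, a fall that left a narrow gap between the groups (-0.94 ± 0.26 SE, edgeR adjusted p = 0.0408). Cox6b2, known from testis, had 58 counts in all (0 to 1.47 CPM), Cox8b, the muscle isoform, 5, Cox7b2 1 and Cox8c 0, so these were not tested.

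Complex V, the ATP synthase, was lower in 14 of its 17 tested genes with all 10 libraries and in 7 of 17 with 8. In the catalytic head, Atp5f1b, the beta subunit, was at 423 to 1778 CPM in sedentary and 325 to 396 CPM in exercise (-1.32 ± 0.38 SE, edgeR adjusted p = 0.0434). Atp5f1c and Atp5f1d, the gamma and delta subunits of the rotating shaft, were lower by log2 fold changes of -1.34 and -1.27, and these 3 genes did not overlap between groups. Atp5f1a, the alpha subunit, lay at 387 to 1301 CPM in sedentary and 310.0 to 377 CPM in exercise and missed the threshold (-1.05 ± 0.32 SE, edgeR adjusted p = 0.0555). Atp5f1e, the epsilon subunit, did so too (-0.70 ± 0.23 SE, adjusted p = 0.0709). Of the stalk that holds the head in place, Atp5po (OSCP, -1.64), Atp5pb (-1.18), Atp5pd (-1.04) and Atp5pf (-0.94) were lower.

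The c-ring, which turns as protons pass, is made of a single mature protein encoded by 3 genes. Atp5mc3 was at 297, 448, 110.4, 84.0 and 134 CPM in sedentary 1 to 5 and at 81.4, 57.2, 68.9, 66.0 and 58.0 CPM in exercise 6 to 10 (-1.70 ± 0.43 SE, edgeR adjusted p = 0.0293). Atp5mc1 was at 158, 229, 67.4, 71.6 and 103 CPM in sedentary and 75.4, 57.5, 52.5, 53.7 and 45.6 CPM in exercise (-1.14 ± 0.33 SE, edgeR adjusted p = 0.0459). Atp5mc3 separated the groups, whereas exercise 6 overlapped the sedentary range of Atp5mc1. Atp5mc2 was at 19.1, 19.7, 14.3, 13.1 and 16.8 CPM in sedentary and 9.39, 11.7, 6.04, 6.63 and 4.30 CPM in exercise (-1.12 ± 0.26 SE, edgeR adjusted p = 0.0216). Its sedentary 1 and 2 values stood little above the other sedentary libraries, and its log2 fold change with 8 libraries was -0.93 ± 0.27 SE (adjusted p = 0.0544). The 3 log2 ratios among these genes differed by 0.19 (Atp5mc1 to Atp5mc2), -0.23 (Atp5mc3 to Atp5mc2) and 0.41 (Atp5mc1 to Atp5mc3), and none passed (exact two-sided permutation tests, adjusted p = 0.611, 0.611 and 0.106). Per length, Atp5mc3 exceeded Atp5mc2 in every library and made up 79.9 to 94.9% of these 2 genes.

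Among the small membrane subunits, Atp5mj was at 63.3, 79.2, 29.6, 23.5 and 38.0 CPM in sedentary 1 to 5 and at 20.5, 18.1, 19.7, 19.6 and 16.8 CPM in exercise 6 to 10. The groups did not overlap (-1.30 ± 0.31 SE, edgeR adjusted p = 0.0220). Atp5me (-1.32), Atp5mf (-1.31) and Atp5mk (-1.003), named Usmg5 in the gene table, were lower too. Atp5mg, which helps pair ATP synthases into dimers, was at 91.1 to 180.2 CPM in sedentary and 79.4 to 94.5 CPM in exercise and did not pass (-0.53 ± 0.19 SE, edgeR adjusted p = 0.0887).

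The medians of the complexes lay close together. Median log2 fold changes were -1.20 for complex II, -1.25 for complex III, -1.25 for complex IV and -1.18 for complex V, and -0.49, -0.52, -0.50 and -0.48 with 8 libraries. All 50 rows together took 0.875, 1.33, 0.467, 0.374 and 0.557% of counts in sedentary 1 to 5 and 0.274, 0.252, 0.274, 0.188 and 0.270% in exercise 6 to 10. Within these counts complex V held 49.6 to 50.9% in all 10 libraries. Complex III held 15.2 to 17.5% in sedentary and 14.3 to 15.001% in exercise, and cytochrome c 0.933 to 1.51% and 0.713 to 0.931%, without overlap. The shares of complexes II (9.72 to 11.3%) and IV (20.9 to 24.3%) overlapped. These shares are descriptions, and the differences between complexes were not tested.

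**Figure D4:**
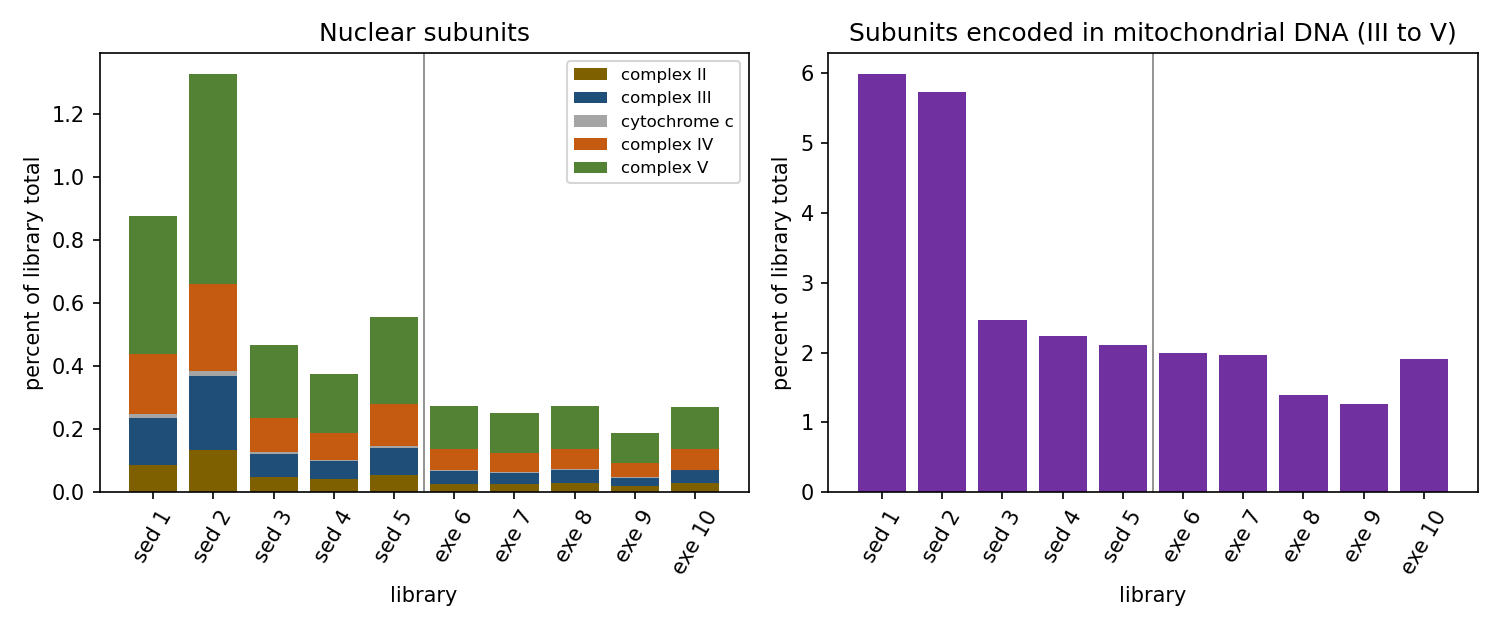
Percent of each library's counts taken by the nuclear subunits, stacked by complex (left), and by the 6 subunits of complexes III to V encoded in mitochondrial DNA (right). Both are highest in sedentary 1 and 2. The nuclear subunits reach at most 0.274% in exercise and at least 0.374% in sedentary libraries, and the mitochondrial subunits 1.26 to 1.99% in exercise and 2.12 to 2.47% in sedentary 3 to 5. As TMM-scaled CPM, the mitochondrial sums overlapped (17845 to 56539 in sedentary, 14467 to 23555 in exercise). The nuclear sums then lay closer (3341 to 12210 and 2548 to 3251 CPM), and those of complex IV overlapped (768 to 2554 and 604 to 788 CPM).

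The partner subunits encoded in mitochondrial DNA did not pass. Of mt-Cytb, mt-Co1, mt-Co2, mt-Co3, mt-Atp6 and mt-Atp8, 0 of 6 were called (edgeR adjusted p between 0.145 and 0.460, 2 at an unadjusted p under 0.05, and 0 with DESeq2 or limma-voom). Their log2 fold changes lay between -0.96 and -0.33, and between -0.06 and 0.26 with 8 libraries, where nuclear members had a median of -0.50. With library totals, which shifted the median of all genes by -0.34, 5 of the 6 were lower, where 4408 of 15298 genes were lower.

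Assembly factors, which build the complexes but are not part of them, were lower in 4 of 40 tested, near the 11.4% of all genes, and 36 did not pass. Their median log2 fold change was -0.42. The 4 were the complex IV factors Higd1a (-1.89), Sco2 (-1.80), Sco1 (-1.56) and Higd2a (-1.07), of which Sco1 and Sco2 deliver copper. Of the 37 nuclear complex I subunits 13 were lower and 24 did not pass (median -0.82), with Ndufs4 (-1.01, edgeR adjusted p = 0.0261), Ndufa3 (-1.10), Ndufc1 (-1.08) and Ndufab1 (-1.09) first by p. Among 13 genes of the citric acid cycle, to which complex II also belongs, 9 were lower and 4 did not pass, with Fh1 (-1.21), Mdh2 (-2.51), Cs (-2.09) and Dlst (-1.32) first by p. Of 9 regulators of respiratory genes Esrra, which encodes ERR alpha (-2.05), Ppargc1a (-1.79) and Ppargc1b (-2.50), coactivators, were lower. Nrf1, Gabpa and Yy1 did not pass, at log2 fold changes of -0.17, -0.05 and 0.04, and the first pair turned positive with 8 libraries (0.07 and 0.22). With 8 libraries 2 assembly factors, 5 complex I subunits, 8 cycle genes and 2 regulators were lower. The share of all genes lower was then 8.68%.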

How the data were processed

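RNA-seq was done on islets of 5 sedentary and 5 exercise libraries, grouped by the labels. Per the labels' protocols, RNA was taken with an RNeasy kit and made into TruSeq stranded mRNA libraries. The deposited values are estimated counts per Ensembl gene, and the submitters' processing notes name fastp and kallisto. The build, the annotation, tool versions and the step from transcripts to genes: not given in the sources used here. Counts were rounded before testing, since 12.6% of values were not whole to within 1e-06.

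Genes were tested with edgeR 4.0.16 in R 4.3.3 (quasi-likelihood test, trimmed-mean (TMM) scaling, minimum count 10, minimum total 15, 15298 genes). P-values were adjusted by Benjamini-Hochberg over all genes tested, and called under 0.05. Library sizes scaled by TMM give the CPM, and ± values after a log2 fold change are standard errors. For edgeR these were derived from the test, as the size of the log2 fold change over the square root of its F statistic. Levels per length use the median length of GENCODE principal transcripts. Isoform ratios are log2 ratios of counts with 0.5 added to each, for 5 of 10 pairs with counts enough, compared by exact permutation tests. A symbol was found for 48845 of 52178 rows, and reads shared between near-identical copies such as pseudogenes may be divided uncertainly.

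The members and gene lists were chosen with earlier results of these data known. Values in every library are given for the 12 members with the smallest p and for isoform families detected in every library, and for the others ranges or fold changes. Of other lists, members past the threshold were named, up to 4 by smallest p (fewer for marker lists). Sdha, Sdhb and the members that missed the threshold were given by range or fold change. Regulators not passing were named for their motifs. Counts of each list in each direction stand in place of a set test. Alternatives were other scalings (RLE, library totals, upper quartile), filters, DESeq2 1.42.0, limma-voom 3.58.1 with and without sample weights, and leaving out each library. The 8 libraries without sedentary 1 and 2 were chosen after seeing the data. Genomic positions are given for promoters only.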

Additional observations from a re-analysis of the deposited data

Results flagged for a closer look

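Among 108 groups of 5 libraries (each tested member, each of the 5 isoform ratios, and the shares of the 4 complexes and cytochrome c, in each group), 9 had 1 library far from the other 4 by Dixon's gap criterion, and chance alone gives about 1 in 20 groups. Exercise 6 was the high library for 6 of the genes. It was at 59.2 CPM for Cox5b, where the other exercise libraries lay between 43.6 and 47.3 CPM. Cox6a1 was at 90.5 CPM in it, Cox7a2 at 47.3 CPM, Cyc1 at 51.2 CPM, Uqcr10 at 27.2 CPM and Uqcrq at 67.6 CPM. Its intestinal list summed to 680 CPM, close to the 670 CPM of exercise 10. Its acinar list summed to 273992 CPM, below the 452702 CPM of exercise 9. The duct list summed to 173 CPM in exercise 6 and to 58.9 to 101 CPM in the other exercise libraries. Whether any of these has a part in the values of exercise 6 was not tested.

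Exercise 10 was low for Cox7b, at 39.9 CPM against 46.5 to 48.9 CPM in the other exercise libraries. Exercise 9 had the lowest percent of counts in complex IV, 0.0443% against 0.0611 to 0.0665%, and in complex V, 0.0955% against 0.126 to 0.137%. Its acinar list summed to 452702 CPM, the highest of all libraries, and the part of this in the shares was not tested. None of the members' TMM-scaled CPM values was set apart in exercise 9.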

How the results depend on the processing

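Members without a call changed sign under some settings: Cox6a2 and Cox4i2 were positive in some fits and negative in others, and Cox7a2l was positive with sample-weighted limma-voom. The count of lower members was 34 to 42 with RLE factors, library totals, upper quartile factors, a stricter filter, DESeq2 and sample-weighted limma-voom, 31 without a filter, and 25 without sedentary 1 and 2. Limma-voom without sample weights called 1, which was not Cox7a1, where 339 of 15298 genes were lower. Leaving out 1 library gave 1 to 42, where 800 to 2721 of all genes tested were lower. Relative to the median of all genes, which moved by -0.34 with library totals and 0.11 with upper quartile factors, the members' median was -1.24 to -1.11 under other scalings, filters and tools, except sample-weighted limma-voom (-0.56). It was -1.41 to -0.89 without 1 library and -0.52 without sedentary 1 and 2. No called member turned direction. The causes were not tested.

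The 4 assembly factors became 30 with library totals, 11 with DESeq2, 0 with limma-voom, 7 with sample-weighted limma-voom, 2 without sedentary 1 and 2, and 0 to 15 without 1 library. The 13 complex I subunits became 36 with library totals, 26 with DESeq2, 0 with limma-voom, 5 without sedentary 1 and 2, and 0 to 29 without 1 library. The 9 citric acid cycle genes became 3 with limma-voom and 2 to 12 without 1 library. The 3 regulators became 0 with limma-voom and 0 to 3 without 1 library. The subunits encoded in mitochondrial DNA went from 0 to 5 with library totals. Over all genes, 4408 of 15298 were lower with library totals, 2867 of 19239 with DESeq2 and 339 of 15298 with limma-voom.

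The Cox7a1 to Cox7a2 difference was -3.32 to -2.77 without 1 library and -2.44 without sedentary 1 and 2. With fewer than 5 libraries in a group, 1 pair alone at the lowest exact p cannot pass after adjustment over 5 pairs. A call lost in these fits would therefore say nothing about stability. No paired analysis was possible because the replicate numbers run from 1 to 10 with none shared by the groups. Depth limits Cox4i2, Cox6b2, Cox7b2, Cox8b and Cox8c, which had too few counts to test with all 10 libraries. Cox4i2 was tested in some other fits, and did not pass with 8 libraries (-0.20 ± 0.44 SE, edgeR adjusted p = 0.796).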

Other observations

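Proteins that act on the complexes without being members by name followed the members to different degrees. Atp5if1, the inhibitor that stops ATP synthase from running backwards, was lower, at 46.3 to 221 CPM in sedentary and 28.1 to 42.5 CPM in exercise. Its log2 fold change was -1.67 (edgeR adjusted p = 0.0226), and -0.85 with 8 libraries (adjusted p = 0.0229). Ndufa4, named for complex I but found in complex IV, did not pass (-1.05, edgeR adjusted p = 0.0551). Ppif, the cyclophilin of the permeability pore (-0.87), Hccs, which attaches haem to cytochrome c (-0.57), and Dmac2l, a factor of ATP synthase (-0.10), did not pass either. Cyct, the testis cytochrome c, was at 0 to 0.0488 CPM and was not tested.

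The 7 complex I subunits encoded in mitochondrial DNA had log2 fold changes between -0.67 and 0.20, and 0 passed (edgeR, 0 at an unadjusted p under 0.05, and 0 with DESeq2 or limma-voom). With 8 libraries they lay between -0.02 and 0.49, while the 37 nuclear complex I subunits lay between -0.54 and -0.07.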
